A study of Mus musculus with 18 samples.

Results

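The genes described here control the sterol balance of a cell: 9 genes that encode the sterol regulatory element-binding proteins (SREBPs), their escort and anchors, a sterol carrier, a regulator of lipoprotein uptake and the pumps that export cholesterol. They are Srebf1, Srebf2, Scap, Insig1, Insig2, Stard4, Mylip, Abca1 and Abcg1, chosen by name for these roles, and each is 1 of 54279 rows in both deposited tables. RNA was measured in mouse OPCs, oligodendrocyte progenitor cells that divide and can mature into myelin-forming cells. They had been derived from epiblast stem cells and kept in medium with Fgf2 and Pdgfa. Vhl cells carried a CRISPR edit of Vhl, whose protein marks hypoxia-inducible factors for destruction, and control cells carried a CRISPR control. 18 libraries form 6 groups of 3, lettered A to C. The first experiment holds untreated Vhl cells and untreated control cells. The second holds Vhl cells and control cells in 300 nM AZD8330, which blocks the MEK1 and MEK2 kinases, for 14 hours, and Vhl cells and control cells in DMSO, its solvent, for the same time. The labels do not say whether the edited cells are a clone or a pool. Nor do they say whether libraries A to C are separate cultures, so the spread behind each p-value may be technical.

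SREBPs are transcription factors made as inactive proteins in the membrane of the endoplasmic reticulum. When sterols run low, the escort SCAP carries them to the Golgi, where proteases free the active part. When sterols are plentiful, INSIG proteins hold SCAP back, and oxidised sterols activate the nuclear receptors LXR, which raise genes for cholesterol export. OPCs that mature into oligodendrocytes are known to need large amounts of cholesterol for myelin.

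Levels are in CPM, estimated counts relative to the scaled library total, and a group is given as mean ± SD with n = 3. Changes are log2 ratios ± standard error (SE), and a gene rose or fell where edgeR's quasi-likelihood test gave an adjusted p under 0.05 over all tested genes. Library totals lay between 14594148 and 21160250 estimated counts in the untreated set and between 12391077 and 16349676 in the drug experiment. The untreated libraries spread more within groups (common dispersion 0.144) than those of the drug experiment (0.0161). Which untreated library stood apart differed by gene: A in both groups for Abca1, and B in Vhl cells for Insig2 and Stard4. Vhl mRNA did not overlap between Vhl and control cells. It was at 91.8 to 104 CPM in Vhl cells and 136 to 139 CPM in control cells with AZD8330, 89.8 to 93.8 CPM and 102 to 109 CPM with DMSO, and 73.9 to 89.9 CPM and 117 to 125 CPM untreated. The labels do not give the edited part of Vhl. The 9 OPC lineage markers were all at or above a mean of 1 CPM, whereas none of 7 microglia markers was. In each experiment 9 of 10 astrocyte and 6 of 7 neuron markers also reached that mean, so it does not set OPCs apart. A row need not hold all reads of its gene. Genes that every cell uses had rows near 0, such as Polr2a at 0 to 4.76 and Eef2 at 0.638 to 2.42 CPM of the unscaled total in the drug experiment. Members' levels are therefore compared between groups and not with each other.

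The tests took genes whose mean reached 1 CPM, which left 7 of the 9 members in each table. Mylip was listed at 0 in each of the 18 libraries, and Abcg1 lay under that mean. AZD8330 against DMSO changed 4 of the 9 members in Vhl cells (2 rose, 2 fell), where 51.4% of all tested genes changed (25.8% rose, 25.6% fell). It changed 6 in control cells (2 rose, 4 fell), where 60.8% did (29.1% rose, 31.7% fell). Vhl against control cells changed 6 members in AZD8330 (4 higher, 2 lower), with 30% of tested genes changed (16% higher, 14% lower), and 6 in DMSO (1 higher, 5 lower), with 32.3% changed (13.8% higher, 18.5% lower). The effect of AZD8330 differed between Vhl and control cells for 5 members (higher in Vhl cells for 4, lower for 1), and for 12.8% of tested genes (7.81% higher, 4.96% lower). Comparisons within the drug experiment share libraries and are not independent. In untreated cells 0 of the 9 members passed in edgeR's test, where 2 genes, or 0.0147%, did and 1267 genes had an unadjusted p under 0.05. In DESeq2 1 member passed, where 355 of all genes did. The direction of the many small changes depended on scaling. Of the genes that changed between Vhl and control cells in DMSO, 42.6% were higher in Vhl cells with TMM scaling and 56.6% with library totals. For the difference of drug effects, 61.2% of the called genes were higher with TMM and 44.0% with library totals.

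**Figure D1:**
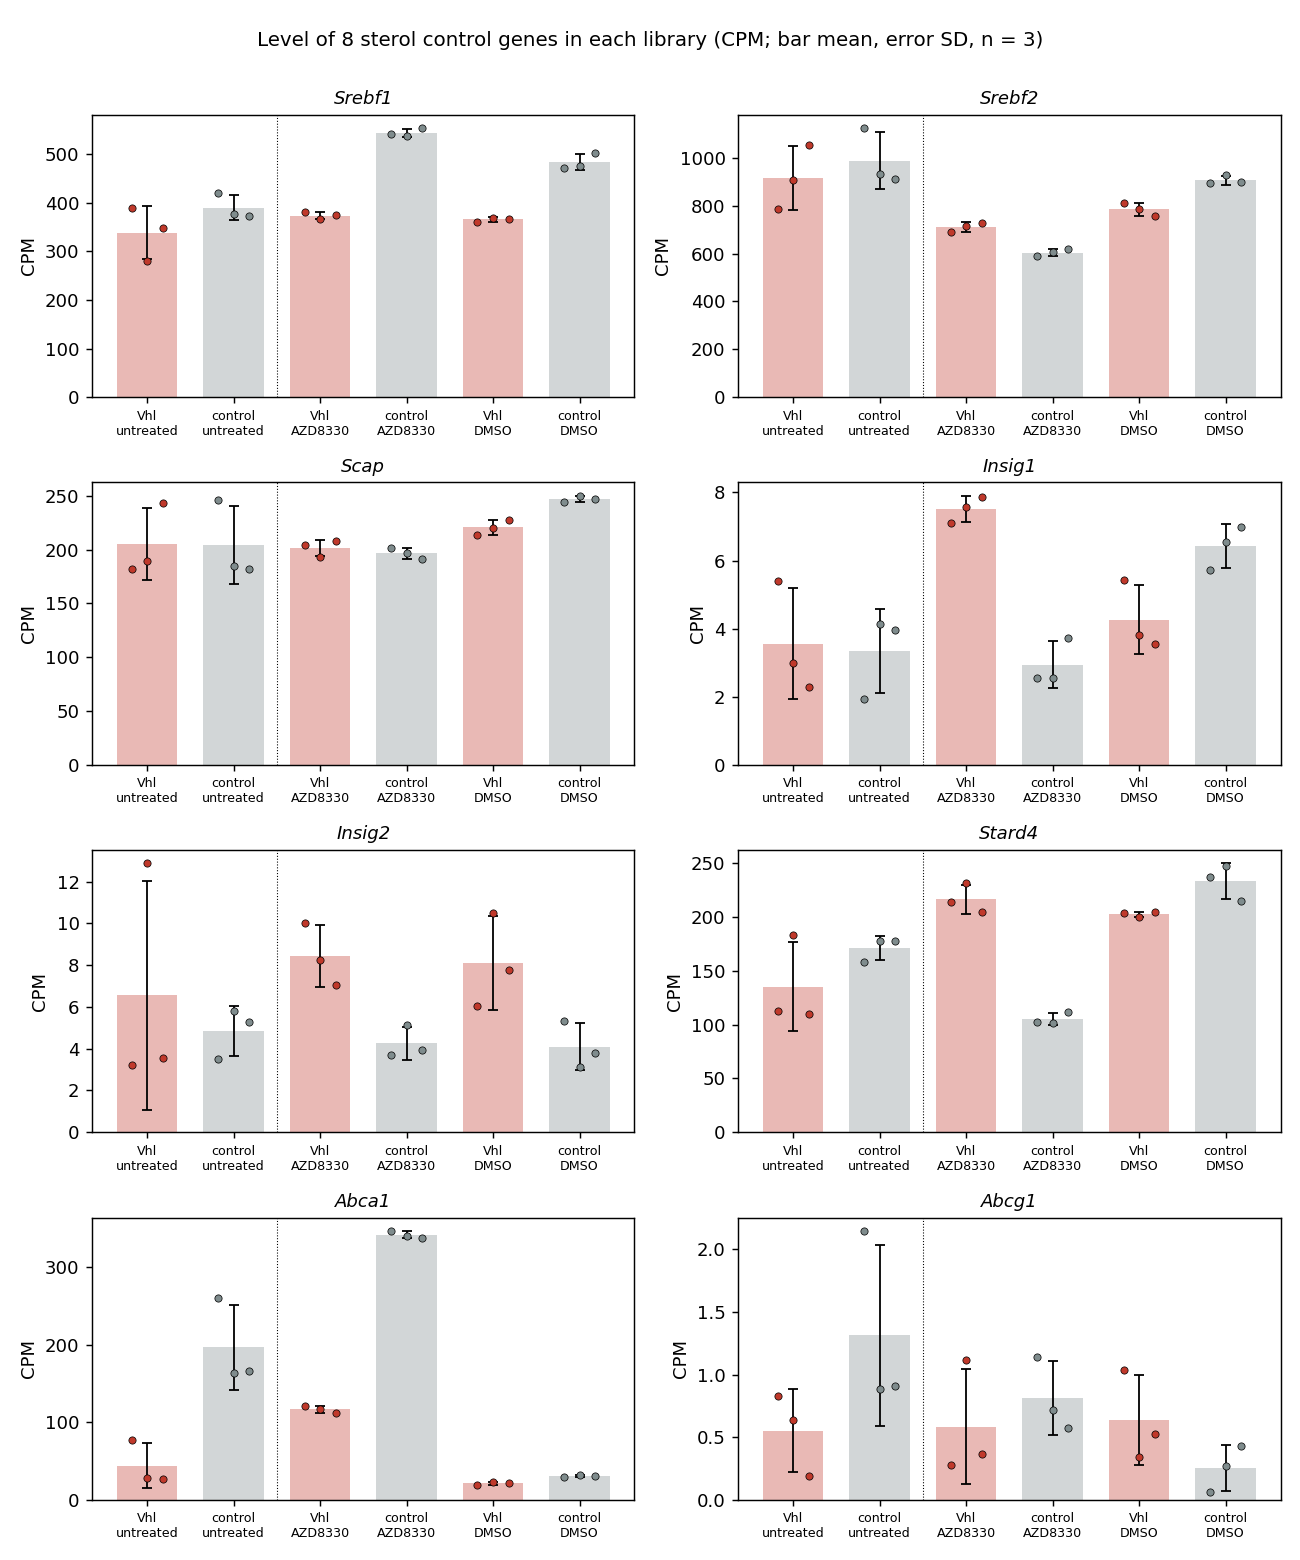
Level of 8 members in CPM on the vertical axes, by group on the horizontal axes; bars are means, error bars the SD of n = 3 libraries and points libraries A, B and C from left to right. Vhl cells are red and control cells grey, and a dotted line parts the 2 experiments, which were scaled separately. Abca1 reached 341 ± 4.57 CPM in control cells with AZD8330, its highest group of the drug experiment.

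The 2 SREBP genes moved in opposite directions with AZD8330 in control cells, and between Vhl and control cells in AZD8330. In DMSO both were lower in Vhl cells. Srebf1 encodes the SREBP1 isoforms, which favour fatty acid genes, and Srebf2 encodes SREBP2, which favours cholesterol synthesis and uptake genes. Srebf1 was at 380, 367 and 375 CPM in Vhl cells with AZD8330, against 541, 537 and 554 CPM in control cells with AZD8330. With DMSO it was at 361, 370 and 367 CPM in Vhl cells, against 473, 477 and 503 CPM in control cells. The Vhl libraries thus lay below all control libraries in both media. Srebf1 was lower in Vhl cells by log2 −0.54 ± 0.03 in AZD8330 (adjusted p = 3.46e-08, edgeR) and by −0.40 ± 0.03 in DMSO (adjusted p = 7.45e-07, edgeR). AZD8330 raised it slightly in control cells (log2 0.17 ± 0.03, adjusted p = 0.000341, edgeR). In Vhl cells the drug effect was 0.03 ± 0.03 (adjusted p = 0.432, edgeR). The difference of these effects, −0.14 ± 0.04, did not pass (adjusted p = 0.0587, edgeR), but it passed with DESeq2's size factors in edgeR (adjusted p = 0.0326), with library totals (0.0179) and in DESeq2 (0.00456). It also passed in edgeR without control AZD8330 B (adjusted p = 0.0196), control DMSO C (0.0215) or Vhl AZD8330 A (0.00949), where it was −0.23, −0.16 and −0.24. The tables hold 1 row for Srebf1, so its isoforms cannot be told apart.

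Srebf2 was at 690, 716 and 729 CPM in Vhl cells with AZD8330, against 589, 605 and 620 CPM in control cells with AZD8330. In DMSO the order was turned round, at 813, 787 and 758 CPM in Vhl cells against 894, 929 and 899 CPM in control cells. None of these 4 groups overlapped with another. Srebf2 fell with AZD8330 in Vhl cells by log2 −0.14 ± 0.03 (adjusted p = 0.00339, edgeR) and in control cells by −0.59 ± 0.03 (adjusted p = 8.01e-09, edgeR). The drug effects differed by 0.44 ± 0.05 (adjusted p = 9.56e-05, edgeR). Vhl cells were therefore higher than control cells in AZD8330 (log2 0.24 ± 0.03, adjusted p = 0.00017, edgeR) and lower in DMSO (−0.21 ± 0.03, adjusted p = 0.000465, edgeR).

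The promoters of both genes are shown because SREBP genes are known targets of sterol control themselves. From RefSeq start sites on build GRCm38.p6, 12 windows of 300 bases, 250 before and 50 after a start, were searched for 7 members. No window of Stard4 or Abcg1 was searched. Both strands were searched for the E-box CACGTG, the hypoxia response core ACGTG (which lies inside every E-box), the NF-Y box CCAAT, the SREBP sites TCACCCC and TCACNCCAC, and TNACCNNNNNTNACC. The last is a loose form of the direct repeat that LXR binds, and it was added after the windows had been read. Of all 32851 windows, 7.15% held the E-box, 19.6% the hypoxia core, 37.4% the NF-Y box, 4.97% and 1.24% the short and the long SREBP site, and 0.718% the LXR repeat. Capitals mark matches in either direction. The window of Srebf1 at chr11:60210422-60210721, minus strand, is 1 of 3 for this gene, and its LXR repeat begins at −182 and its NF-Y box at −30 from the start. The window of Srebf2 at chr15:82147019-82147318, plus strand, holds a short SREBP site at −162 and an NF-Y box at −135.
Srebf1: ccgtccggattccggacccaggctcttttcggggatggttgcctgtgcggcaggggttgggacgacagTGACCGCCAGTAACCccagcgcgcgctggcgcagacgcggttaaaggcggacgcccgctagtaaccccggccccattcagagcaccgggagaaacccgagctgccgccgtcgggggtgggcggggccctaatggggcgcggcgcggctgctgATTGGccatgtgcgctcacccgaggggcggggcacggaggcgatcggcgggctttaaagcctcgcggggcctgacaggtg
Srebf2: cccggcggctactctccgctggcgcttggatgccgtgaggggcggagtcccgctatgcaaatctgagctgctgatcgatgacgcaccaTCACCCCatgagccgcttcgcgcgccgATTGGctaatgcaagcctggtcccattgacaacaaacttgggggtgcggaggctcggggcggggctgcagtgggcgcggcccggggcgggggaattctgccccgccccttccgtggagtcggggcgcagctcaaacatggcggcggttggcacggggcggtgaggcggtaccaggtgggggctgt

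Scap, whose protein senses cholesterol and escorts SREBPs, changed little. It ranged from 193 to 208 CPM in Vhl cells with AZD8330, 191 to 202 CPM in control cells with AZD8330, 213 to 228 CPM in Vhl cells with DMSO and 244 to 250 CPM in control cells with DMSO. The DMSO groups lay above the AZD8330 groups, which overlapped. AZD8330 lowered Scap in Vhl cells (log2 −0.13 ± 0.04, adjusted p = 0.0101, edgeR; 0.053 without Vhl AZD8330 B) and in control cells (−0.33 ± 0.04, adjusted p = 4.86e-06, edgeR). It was lower in Vhl than in control cells in DMSO (−0.16 ± 0.04, adjusted p = 0.00449, edgeR), a call lost when libraries were scaled by their totals (adjusted p = 0.0669, edgeR). In AZD8330 the change was 0.04 ± 0.04 (adjusted p = 0.522, edgeR). The difference of drug effects was 0.20 ± 0.05 (adjusted p = 0.0258, edgeR). That call was lost with DESeq2's size factors (0.0555) and library totals (0.133), and when single libraries were left out: control AZD8330 B (0.241) or C (0.0665), control DMSO B (0.0593), Vhl AZD8330 A (0.295) or C (0.0582), or Vhl DMSO A (0.0573) or B (0.052). The difference itself was 0.10 without Vhl AZD8330 A and 0.12 without control AZD8330 B. Scap counts were whole within 0.001 in 0 of 12 libraries. Of the 31-base stretches of its transcripts, 11.3% also occur in another gene, the largest share among the members. The row may not hold all Scap reads.

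Insig1 and Insig2 encode the proteins that retain SCAP in the endoplasmic reticulum, and Insig1 is itself a classic SREBP target. Insig1 was at 7.10, 7.59 and 7.86 CPM in Vhl cells with AZD8330, against 2.53, 2.54 and 3.73 CPM in control cells with AZD8330. The DMSO values were 5.41, 3.82 and 3.55 CPM in Vhl cells, against 5.71, 6.55 and 6.995 CPM in control cells. Vhl cells with AZD8330 were the highest group and control cells with AZD8330 the lowest except for their library C. AZD8330 raised Insig1 in Vhl cells (log2 0.82 ± 0.21, adjusted p = 0.00614, edgeR) and lowered it in control cells (−1.13 ± 0.22, adjusted p = 0.000594, edgeR). The drug effects differed by 1.95 ± 0.31 (adjusted p = 0.00135, edgeR), a difference exceeded in size by 1.11% of tested genes. Vhl cells were higher than control cells in AZD8330 (log2 1.36 ± 0.22, adjusted p = 0.000402, edgeR). In DMSO the change of −0.59 ± 0.22 did not pass (adjusted p = 0.0523, edgeR), whereas DESeq2 (0.0415) and limma on log2(CPM + 1) (0.0383) called it. It also passed in edgeR with DESeq2's size factors (0.0469) and without control AZD8330 C (0.0389) or Vhl DMSO A (0.0186). These levels rest on 38.8 to 116 estimated counts a library, none whole within 0.001, and the row may not hold all Insig1 reads.

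The window of Insig1, at chr5:28071162-28071461 on the plus strand, is shown because Insig1 had the largest difference of drug effects among the members. It holds an NF-Y box at −216, an E-box at −101 with a hypoxia core on each strand, and hypoxia cores at −21 and 45.
Insig1: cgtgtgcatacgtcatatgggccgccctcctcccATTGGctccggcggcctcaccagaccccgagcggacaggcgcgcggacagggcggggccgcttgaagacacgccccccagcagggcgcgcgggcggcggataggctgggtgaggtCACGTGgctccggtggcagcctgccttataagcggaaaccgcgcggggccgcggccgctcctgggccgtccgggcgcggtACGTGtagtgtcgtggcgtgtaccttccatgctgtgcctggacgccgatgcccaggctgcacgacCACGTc

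Insig2 was higher in Vhl cells in both media. It was at 9.999, 8.24 and 7.06 CPM in Vhl cells with AZD8330, against 3.68, 5.15 and 3.94 CPM in control cells with AZD8330. With DMSO it was at 6.05, 10.5 and 7.77 CPM in Vhl cells, against 5.33, 3.14 and 3.78 CPM in control cells. Each Vhl library lay above each control library. Insig2 was higher in Vhl cells by log2 0.98 ± 0.26 in AZD8330 (adjusted p = 0.0112, edgeR; 0.0581 without Vhl AZD8330 A) and by 0.99 ± 0.26 in DMSO (adjusted p = 0.0108, edgeR; 0.0558 without Vhl DMSO B). The effect of AZD8330 was 0.06 ± 0.25 in Vhl cells (adjusted p = 0.873, edgeR) and 0.06 ± 0.26 in control cells (adjusted p = 0.865, edgeR). With 46.8 to 154 estimated counts a library, none whole within 0.001, changes of a size near these errors were not detectable at this depth.

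Stard4 encodes a carrier that moves cholesterol between membranes and is a known SREBP2 target. It was at 214, 231 and 205 CPM in Vhl cells with AZD8330, against 102, 102 and 112 CPM in control cells with AZD8330. The DMSO levels were 203, 199.6 and 204 CPM in Vhl cells, against 237, 248 and 215 CPM in control cells. Each library of control cells with AZD8330 lay below all libraries of the other 3 groups of that experiment. AZD8330 lowered Stard4 in control cells (log2 −1.15 ± 0.06, adjusted p = 2.4e-09, edgeR), and in Vhl cells its effect was 0.10 ± 0.06 (adjusted p = 0.174, edgeR). The effects differed by 1.24 ± 0.08 (adjusted p = 2.06e-06, edgeR). Vhl cells were higher than control cells in AZD8330 (log2 1.04 ± 0.06, adjusted p = 3.61e-08, edgeR). In DMSO they were lower by −0.20 ± 0.06 (adjusted p = 0.0154, edgeR). The DMSO call was lost with library totals (0.0656) and without control AZD8330 B (0.0588), control DMSO B (0.0694) or Vhl AZD8330 A (0.0624). Mylip, which encodes a ubiquitin ligase that limits lipoprotein uptake and is a known LXR target, gave no value to compare.

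Abca1, which encodes the pump that passes cholesterol to lipid-poor apolipoproteins and is a known LXR target, had the widest range of the members. It was at 121, 117 and 112 CPM in Vhl cells with AZD8330, against 347, 340 and 338 CPM in control cells with AZD8330. In DMSO it was at 19.3, 23.3 and 22 CPM in Vhl cells, against 29.8, 31.7 and 30.1 CPM in control cells. The 4 groups did not overlap, and they ran from Vhl cells in DMSO over control cells in DMSO and Vhl cells in AZD8330 to control cells in AZD8330. AZD8330 raised Abca1 5.41-fold in Vhl cells (log2 2.44 ± 0.06, adjusted p = 4.06e-12, edgeR) and 11.2-fold in control cells (3.48 ± 0.05, adjusted p = 7.82e-14, edgeR). In all, 1.21% of tested genes had a larger change in control cells. The rise was smaller in Vhl cells, by log2 −1.05 ± 0.08 (adjusted p = 6.34e-06, edgeR). Abca1 was lower in Vhl than in control cells in AZD8330 (−1.55 ± 0.05, adjusted p = 1.36e-10, edgeR) and in DMSO (−0.50 ± 0.06, adjusted p = 6.47e-05, edgeR).

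Summed levels of markers of OPCs and of other cell types moved with AZD8330 beside Abca1. With AZD8330 the 9 OPC lineage markers summed to 9499 to 9618 CPM in Vhl cells and 8815 to 8903 CPM in control cells. With DMSO they summed to 8944 to 9126 CPM in Vhl cells and 8086 to 8261 CPM in control cells. Of 10 astrocyte markers, 9 reached a mean of 1 CPM, and their sum was 3092 to 3147 CPM in Vhl cells with AZD8330 and 2964 to 3092 CPM in control cells with AZD8330. In DMSO the sum was 2062 to 2107 CPM in Vhl cells and 1575 to 1608 CPM in control cells. The sum of 7 mature oligodendrocyte markers, of which 5 reached that mean and Mog was at 0 in 11 of 12 libraries, was 29.5 to 32.3 CPM in Vhl cells with AZD8330 and 61.5 to 66.1 CPM in control cells with AZD8330. It was 11.6 to 19.1 CPM in Vhl cells with DMSO and 15.4 to 17.2 CPM in control cells with DMSO. The sum of 7 neuron markers, 6 of them at that mean, was 2502 to 2532 CPM in Vhl cells with AZD8330. In control cells with AZD8330 it was 2111 to 2121 CPM. With DMSO it was 1472 to 1608 CPM in Vhl cells and 1005 to 1056 CPM in control cells. Most of the neuron sum was Map2, at 839 to 1968 CPM over the 12 libraries. Snap25 was at 0.635 to 3.07 CPM, and Syt1 was at 0 in 6 libraries. The sum of 5 pluripotency markers, of which 3 reached that mean and Pou5f1 and Utf1 were at 0 in all 12 libraries, was lower with AZD8330. With AZD8330 it was 4.76 to 6.19 CPM in Vhl cells and 5.88 to 7.31 CPM in control cells. With DMSO it was 15.8 to 19.98 CPM in Vhl cells and 19.2 to 23.7 CPM in control cells. Esrrb alone was at 2.295 to 22.1 CPM over the 12 libraries, against at most 2.8 CPM for Nanog and 1.91 CPM for Fgf5. The microglia sum stayed between 0.318 and 1.71 CPM in all 12 libraries. Their part in the result was not tested. In these bulk samples, fewer cells of a type and less RNA per cell cannot be told apart.

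The Abca1 window, at chr4:53159846-53160145 on the minus strand, is shown because Abca1 changed most. It holds an E-box at −147 and the loose LXR repeat at −67. Of the members' windows that were searched, this one and the printed Srebf1 window held the repeat.
Abca1: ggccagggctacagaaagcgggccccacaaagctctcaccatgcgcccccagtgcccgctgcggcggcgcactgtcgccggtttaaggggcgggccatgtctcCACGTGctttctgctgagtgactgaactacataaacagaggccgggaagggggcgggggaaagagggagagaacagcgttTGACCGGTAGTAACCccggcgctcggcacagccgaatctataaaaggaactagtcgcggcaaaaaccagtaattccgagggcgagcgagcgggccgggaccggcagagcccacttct

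**Figure D2:**
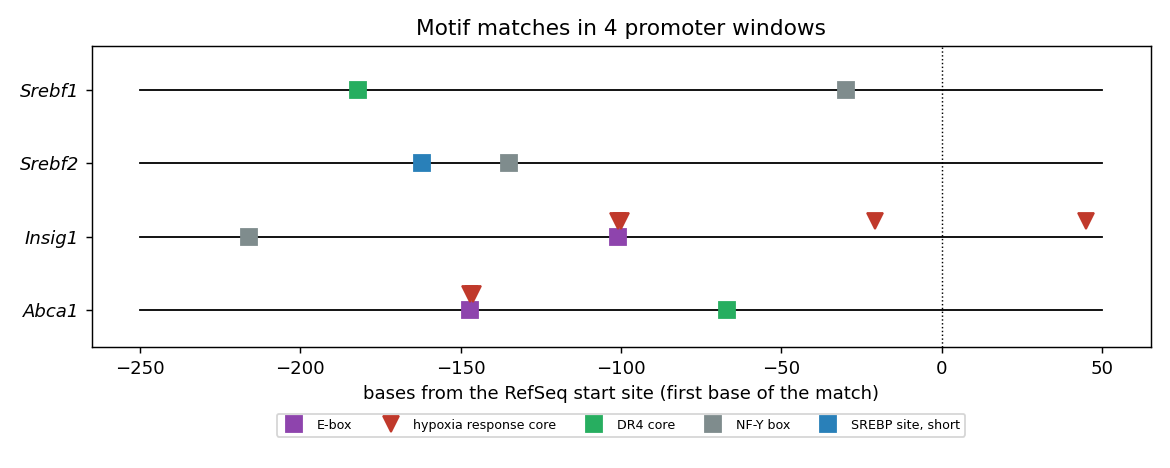
Matches of 5 motifs in the printed windows of Srebf1, Srebf2, Insig1 and Abca1, placed by the distance of their first base from the RefSeq start site in bases. The LXR repeat (DR4 core) is marked at −182 in Srebf1 and −67 in Abca1, and the short SREBP site at −162 in Srebf2.

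Abcg1 encodes a pump that passes cholesterol to formed lipoprotein particles. It had 4, 17 and 5 counts in Vhl cells with AZD8330, against 18, 11 and 8 counts in control cells with AZD8330. It had 13, 5 and 7 counts in Vhl cells with DMSO, against 1, 4 and 6 counts in control cells with DMSO. Control cells with AZD8330 lay above control cells with DMSO, and the Vhl groups overlapped. Tested without the filter on low levels, the rise with AZD8330 in control cells did not pass (log2 1.64 ± 0.74, adjusted p = 0.0996, edgeR), and no other comparison of Abcg1 had a lower adjusted p. A change of Abcg1 was not detectable at this depth.

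**Figure D3:**
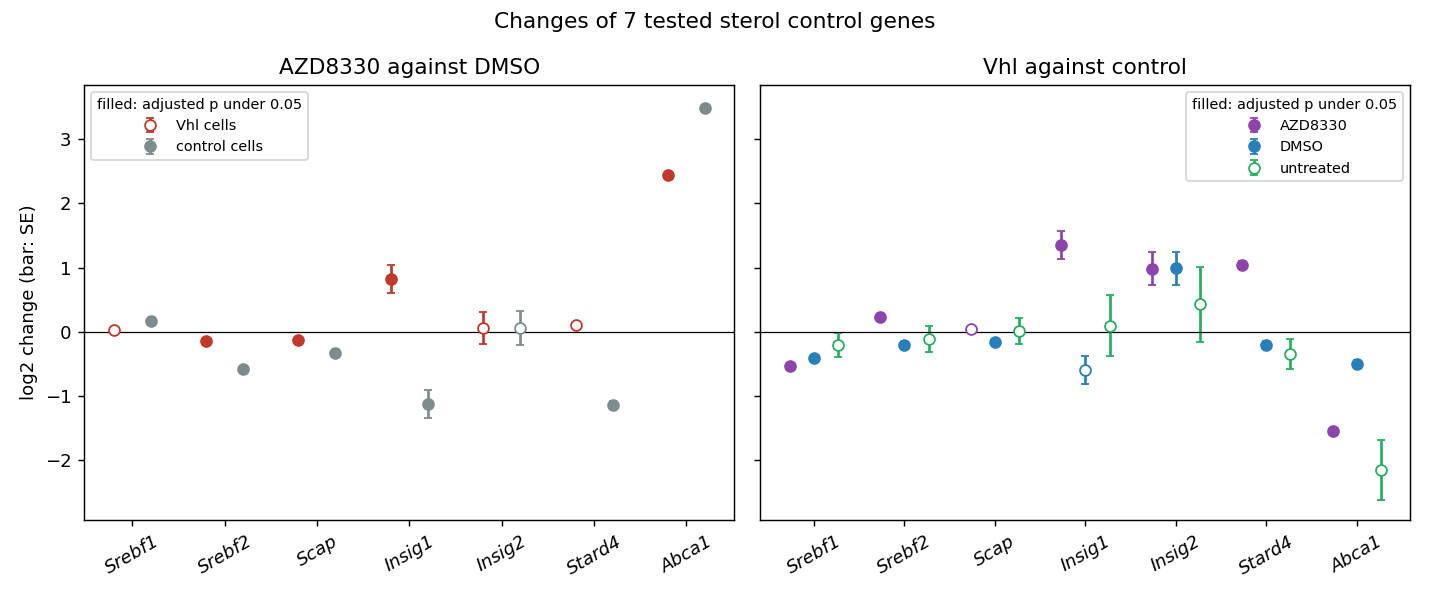
Log2 change ± SE of the 7 tested members for AZD8330 against DMSO (left; Vhl cells red, control cells grey) and for Vhl against control cells (right; AZD8330 purple, DMSO blue, untreated green); filled points have an adjusted p under 0.05 in edgeR. Insig1 stands at 0.82 in Vhl cells and −1.13 in control cells in the left panel.

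In untreated cells the difference of Abca1 did not pass. It was at 77.5, 27.8 and 26.4 CPM in Vhl cells A, B and C, against 260, 163 and 166 CPM in control cells. The groups did not overlap, and both A libraries lay above B and C of their group. The change of log2 −2.16 ± 0.47 was exceeded in size by 1.84% of tested genes (adjusted p = 0.215, edgeR). It passed without Vhl A (−2.86, adjusted p = 0.00713, edgeR), without both A libraries (−2.60, adjusted p = 0.00667, edgeR), with no filter on low levels (adjusted p = 0.012, edgeR) and in DESeq2 (adjusted p = 0.000309). Without any other single library it did not pass. Abcg1 had 18, 10 and 3 counts in Vhl cells, against 30, 16 and 14 counts in control cells (log2 −1.24 ± 0.69 with no filter, adjusted p = 0.807, edgeR).

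No other tested member passed between the untreated groups. Srebf1 was at 281 to 389 CPM in Vhl cells and 373 to 421 CPM in control cells (log2 −0.20 ± 0.19, adjusted p = 0.802, edgeR). Srebf2 was at 785 to 1053 CPM in Vhl cells and 911 to 1124 CPM in control cells (−0.11 ± 0.20, adjusted p = 0.922, edgeR). Stard4 was at 113, 183 and 110 CPM in Vhl cells, against 158, 178 and 178 CPM in control cells (−0.34 ± 0.23, adjusted p = 0.726, edgeR). In each of these 3 genes the Vhl and control libraries overlapped. Scap (log2 0.01 ± 0.21), Insig1 (0.09 ± 0.48) and Insig2 (0.43 ± 0.59) had adjusted p-values of 0.994, 0.977 and 0.889 in edgeR, with errors as large as or larger than the changes. Insig2 was at 12.9 CPM in Vhl B, against 3.24 and 3.55 CPM in Vhl A and C.

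Downstream of these genes stand the enzymes of sterol synthesis, and all 20 of them were tested. With AZD8330, 13 rose and 0 fell in Vhl cells, where 25.8% of all tested genes rose and 25.6% fell. The median log2 change of the list there was 0.46 against 0.03 over all tested genes. In control cells 0 rose and 16 fell (median −0.79 against −0.01), where 29.1% of all tested genes rose and 31.7% fell. Between Vhl and control cells, 18 were higher and 0 lower in AZD8330 (median 0.75), where 16% and 14% of all tested genes were. In DMSO 0 were higher and 10 lower (median −0.25), where 13.8% and 18.5% of all tested genes were. The drug effect was higher in Vhl cells for 17 and lower for 0 (median difference 1.07 against 0.03). It was higher for 7.81% and lower for 4.96% of all tested genes. With the 2 other scalings these 5 counts of list genes were 13, 15, 17, 9 to 10 and 17, with the same directions. Idi1, an enzyme that makes the isoprenoid building block, was at 350.2 ± 16.5 CPM in Vhl cells and 155 ± 13.5 CPM in control cells with AZD8330, and at 254 ± 7.27 CPM in Vhl cells and 340.1 ± 14.3 CPM in control cells with DMSO.

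The fatty acid genes under SREBP1 were mixed in control cells with AZD8330. Of 14 tested, 8 rose and 1 fell with AZD8330 in Vhl cells (median 0.36), where 25.8% of all tested genes rose and 25.6% fell. In control cells 6 rose and 6 fell, where 29.1% of all tested genes rose and 31.7% fell. The median of the list in control cells was −0.01 with TMM, 0.01 with DESeq2's size factors and 0.04 with library totals. Between Vhl and control cells, 8 were higher and 3 lower in AZD8330 (median 0.25), where 16% and 14% of all tested genes were. In DMSO 2 were higher and 9 lower (median −0.30), where 13.8% and 18.5% of all tested genes were. With library totals 7 were lower in DMSO, and with DESeq2's size factors 7 were higher in AZD8330. The drug effect was higher in Vhl cells for 7 and lower for 1 (median 0.60), where 7.81% and 4.96% of all tested genes were. Fasn, the fatty acid synthase gene, was at 1032 ± 16.9 CPM in Vhl cells and 693 ± 23.1 CPM in control cells with AZD8330. In DMSO it was at 1010 ± 28 CPM in Vhl cells and 1374 ± 66.4 CPM in control cells, so that its drug effect was 0.03 ± 0.04 in Vhl cells (adjusted p = 0.53, edgeR) and −0.99 ± 0.04 in control cells (adjusted p = 1.68e-10, edgeR). Fasn was higher in Vhl than in control cells with AZD8330 (log2 0.57 ± 0.04, adjusted p = 1.65e-07, edgeR) and lower with DMSO (−0.44 ± 0.04, adjusted p = 2.11e-06, edgeR). Scd1 and Scd2, desaturase genes, rose with AZD8330 in both Vhl cells (log2 1.03 ± 0.04 and 0.90 ± 0.03) and control cells (0.21 ± 0.04 and 0.59 ± 0.03).

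Besides the members, 13 tested genes were listed by name with the LXR system. The list holds receptors beside transporters such as Abca2 and Abca7, and whether LXR acts on each gene was not tested. With AZD8330, 8 rose and 0 fell in Vhl cells (median 0.53), where 25.8% of all tested genes rose. In control cells 9 rose and 0 fell (median 0.55), where 29.1% of all tested genes rose. With both other scalings 7 rose in Vhl cells, and 9 or 10 rose in control cells. The SREBP1 and LXR lists share Scd1. Apoe, the main lipid carrier of the brain, was at 273 ± 29.5 CPM in Vhl cells and 580.1 ± 18.2 CPM in control cells with AZD8330, and at 39.6 ± 5.12 CPM in Vhl cells and 101 ± 8.99 CPM in control cells with DMSO. Its rise was log2 2.79 ± 0.10 in Vhl cells and 2.52 ± 0.09 in control cells, and the difference of 0.26 ± 0.13 did not pass (adjusted p = 0.239, edgeR). Abca7, a relative of Abca1, rose by log2 0.996 ± 0.08 in Vhl cells and 1.42 ± 0.08 in control cells, and its rise was smaller in Vhl cells (difference −0.42 ± 0.11, adjusted p = 0.0255, edgeR). The rise of Scd1, of the same list, was larger in Vhl cells (difference 0.82 ± 0.06, adjusted p = 3.72e-06, edgeR), and no other gene of the list passed for the difference.

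**Figure D4:**
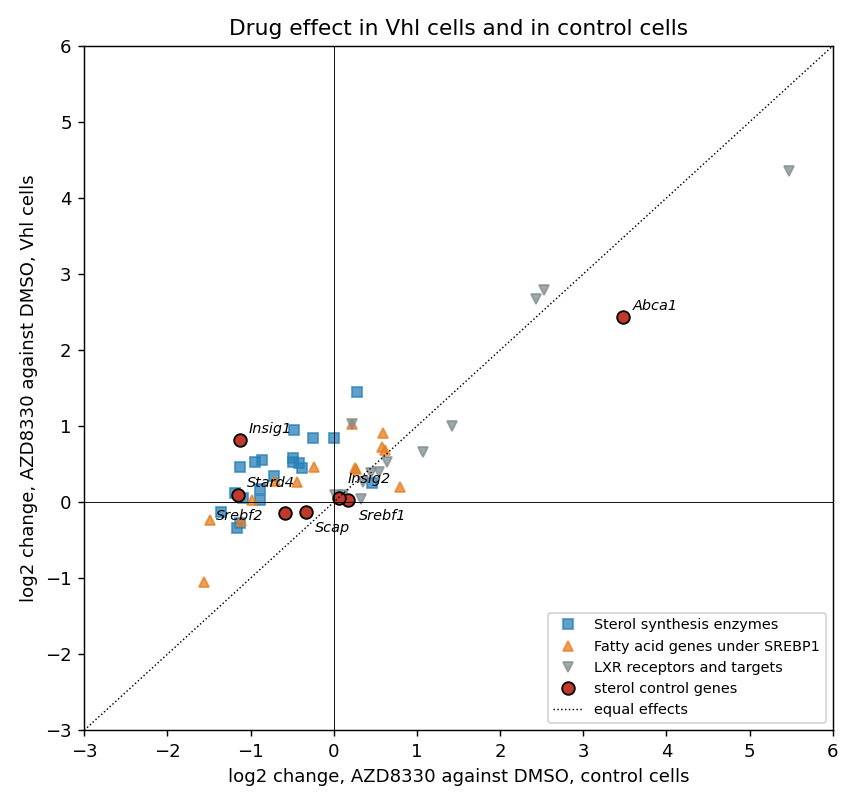
Log2 change with AZD8330 in Vhl cells (vertical axis) and in control cells (horizontal axis) for the 7 tested members (red circles), sterol synthesis enzymes (blue squares), fatty acid genes (orange triangles) and LXR genes (grey triangles); the dotted line marks equal effects. Insig1 and Stard4 lie above the line among the sterol enzymes, and Abca1, at 2.44 and 3.48, lies below it.

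The genes whose levels ran most like each member's over the 12 libraries of the drug experiment were found by Pearson correlation of log2(CPM + 1), given as a description of libraries that share 4 treatments. Insig1 was closest to Mvd (r = 0.952 over 12 libraries, 0.555 over the 6 untreated ones) and Cyp51 (0.937 and 0.254), which are sterol synthesis genes. Srebf2 was closest to Nptxr (0.981 and 0.449), Scap to Zc3h7b (0.977 and 0.762), Insig2 to Pantr1 (0.926 and 0.0779) and Abca1 to Wdfy2 (0.998 and 0.338). Of the 2 genes with the highest correlation, Gas7 was 1 for Srebf1 (0.982 and 0.677) and Pradc1 was 1 for Stard4 (0.961 and 0.194). Among the members, Srebf2 and Scap ran alike in both sets (0.89 and 0.879), and Srebf1 and Insig2 ran opposite in both (−0.828 and −0.848). Other pairs turned round: Srebf2 and Insig1 were at 0.595 in the drug experiment and −0.936 in the untreated set. Srebf2 and Abca1 ran opposite in the drug experiment (−0.885) but not in the untreated set (0.159).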

How the data were processed

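RNA-seq of 18 libraries was deposited as 2 tables of 54279 rows. Although the tables carry TPM in their names, the authors deposited estimated counts per gene: values are whole within 0.001 in 57.7% and 58.8% of entries above 0 and library totals differ. The reads were quantified with Salmon 0.14.1, per the submitters' processing notes, which also name the build mm10. The sources used here name no further steps. Counts were rounded and tested with edgeR 4.0.16 (TMM, quasi-likelihood, Benjamini-Hochberg over all tested genes, mean of at least 1 CPM) in R 4.3.3, with 1 fit for the 6 untreated and 1 for the 12 drug libraries. The SE is the size of the log2 change divided by the square root of its F statistic. Alternatives were DESeq2 1.42.0, limma 3.58.1 on log2(CPM + 1) or log2(CPM + 0.1), other scalings, no filter, a replicate block and leaving out libraries. Depth limits low genes such as Abcg1.

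The 9 members were chosen by name, and the members and gene lists were chosen with earlier results of these data known. Of each list, up to 4 genes with the smallest p in the drug experiment could be named. Also named were the 2 genes most correlated with each member. Some genes that these rules select are not reported here. Dates stand in for names in 26 rows of each deposited file, and 1 row of the drug table has only a digit for a name. 2 columns of the authors' means entered no comparison. Promoters are from RefSeq, GRCm38.p6.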

Additional observations from a re-analysis of the deposited data

Results flagged for a closer look

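The effect of AZD8330 against DMSO differed between Vhl and control cells for 5 members in edgeR's quasi-likelihood test of the difference itself, where 12.8% of all tested genes did. The difference of log2 effects was 1.95 for Insig1, 1.24 for Stard4, 0.44 for Srebf2 and 0.20 for Scap, all higher in Vhl cells. It was −1.05 for Abca1, whose rise was smaller in Vhl cells. The Scap difference did not pass under 2 other scalings or without any 1 of 7 libraries, as given with its values. The other 4 differences passed under every scaling, test and left-out library that was run. Within-group spreads of the members were not screened for single far values, since each group has 3 libraries.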

How the results depend on the processing

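The untreated comparison depended most on the processing. edgeR called 2 genes there, DESeq2 355, limma 4 with either pseudocount, edgeR with no filter 143, with a replicate block 0, and without both A libraries, a choice made after seeing the data, 606. Leaving out 1 library gave 0 to 439 genes, with 439 without Vhl A and 0 without control A, control B, control C or Vhl B. The members called were 0, and 1 (Abca1) in DESeq2, with no filter and without both A libraries, with a range of 0 to 1 when 1 library was left out.

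Changes near 0 turned sign. Scap between Vhl and control cells was −0.0065 with DESeq2's size factors and −0.0069 in DESeq2 in AZD8330, and −0.0046 with library totals and −0.021 with no filter untreated. The Insig2 difference of drug effects was 0.0080 and 0.0014 in limma, 0.019 with no filter and 0.0039 with the replicate block. Without both A libraries, untreated Srebf2 was 0.087 and Insig1 −0.62. Leaving out 1 library gave −0.14 to 0.17 for Scap, −0.35 to 0.32 for Insig1 and −0.52 to 0.75 for Insig2 untreated, and −0.022 to 0.068 for Scap between Vhl and control cells in AZD8330. For the effect of AZD8330 it gave −0.10 to 0.30 for Insig2 in control cells, −0.14 to 0.29 for Insig2 and −0.036 to 0.046 for Srebf1 in Vhl cells, and −0.24 to 0.23 for the Insig2 difference. The causes were not tested. Over all alternatives, 728 member values kept their direction and side of the threshold, 16 gained a call, 17 lost one and 30 turned sign.

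Deviations of same-lettered libraries correlated at −0.081 to 0.053, and those of libraries with other letters at up to 0.178. Between Vhl and control cells in DMSO the same-letter values were 0.024, 0.035 and 0.053. The highest with another letter there were −0.0079, 0.010 and −0.019. Values this small do not decide whether the letters pair libraries. With the replicate block 4218 genes changed between Vhl and control cells in DMSO and 3895 in AZD8330. AZD8330 changed 6832 genes in Vhl cells and 8090 in control cells, and the effects differed for 1552. Member counts with the block were those of the fit without it. Depth limits Abcg1, Insig1 and Insig2, and rows that may hold only some reads of a gene limit every level.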

Other observations

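Genes of sterol uptake other than the members moved in both directions. Vldlr, which encodes a receptor for very-low-density lipoprotein and reelin, was at 216 ± 19 CPM in Vhl cells and 47.9 ± 6.67 CPM in control cells with AZD8330, and at 183 ± 3.47 CPM in Vhl cells and 43 ± 1.31 CPM in control cells with DMSO (SD, n = 3 each). It was higher in Vhl cells by log2 2.17 ± 0.08 in AZD8330 and 2.09 ± 0.09 in DMSO (adjusted p = 1.14e-09 and 2.81e-09, edgeR). Scarb1, the receptor for high-density lipoprotein, fell with AZD8330 by log2 −1.88 ± 0.04 in Vhl cells and −2.29 ± 0.05 in control cells (adjusted p = 3.58e-12 and 5.49e-13, edgeR). Of the 22 tested genes of this list, 12 rose and 6 fell with AZD8330 in Vhl cells, where 25.8% of all tested genes rose and 25.6% fell. In control cells 10 rose and 5 fell, where 29.1% of all tested genes rose and 31.7% fell.

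Of 21 tested genes of SREBP processing and turnover, 2 rose and 6 fell with AZD8330 in Vhl cells and 3 rose and 10 fell in control cells. Of all tested genes, 25.8% rose and 25.6% fell in Vhl cells, and 29.1% rose and 31.7% fell in control cells. Over both directions together, the share of the list that changed was near or below that of all genes. By direction, more of the list fell than rose in both Vhl and control cells. Fbxw7, whose protein marks nuclear SREBPs for degradation, fell by log2 −0.50 ± 0.07 in Vhl cells and −0.87 ± 0.06 in control cells, a difference of 0.38 ± 0.09 (adjusted p = 0.0174, edgeR). Rnf145, which encodes a ubiquitin ligase of SCAP, was higher in Vhl cells by 0.46 ± 0.04 in AZD8330 and 0.42 ± 0.04 in DMSO (adjusted p = 4.49e-06 and 1.17e-05, edgeR).

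The authors' deposited table of untreated cells holds 2 columns of means. Its column for control cells equals the mean of control A, B and C in 100% of rows above 0, within 0.01 counts. Its column for Vhl cells equals the mean of the Vhl libraries in 7.33% of such rows and the mean of control B, control C and Vhl A in 100%. For Abca1 the Vhl column of the authors' deposited table reads 2394 counts, where the 3 Vhl libraries average 844.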
